A study of Mus musculus with 35 samples.

Results

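The samples described here are the lungs of 28 of the 35 mice of the series, labelled as 2 batches of the same groups, 12 mice in July and 16 in September. They were chosen by label, as all control and anti-Ly6G mice of these batches, and the question is which genes kept their difference between ZT16 and ZT4 (16 and 4 hours after lights on) from one batch to the other and which did not. All were wild type C57BL/6 males of 7 to 9 weeks. They were injected under the skin on consecutive days with 3 µg per g body weight of either control IgG or anti-Ly6G (1A8), an antibody against a neutrophil surface protein that depletes neutrophils. July held 3 mice and September 4 mice in each of the groups ZT4 control, ZT4 anti-Ly6G, ZT16 control and ZT16 anti-Ly6G. The batch label gives the month alone, and which step of the work it dates cannot be told from it. Left lobes were perfused and frozen in the morning of the following day. ZT4 mice had lived in the normal facility and ZT16 mice in cabinets with an inverted light cycle, so time of day and housing cannot be told apart, in either batch. The 7 DT mice of the series, from another batch, carried another genotype and were not used.

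The mammalian clock is a feedback loop in which BMAL1 (Arntl) pairs with CLOCK or NPAS2 and switches on genes with an E-box in their promoter, among them the Per, Cry and Nr1d genes. PER and CRY proteins then block that pair. NR1D1 and NR1D2, also called REV-ERB alpha and beta, repress Arntl and Npas2 through ROR elements, at which RORA activates. In the lung this clock runs in epithelium, endothelium, mesenchyme and resident immune cells, and output factors such as DBP pass its rhythm on to other genes. With 2 times of day, a change between them depends on where each gene's daily peak lies as well as on how high it is.

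Expression values are the authors' normalised values, whose sums per library ran from 962649 to 1033550. Time changes are differences of log2(value + 0.5) with their standard errors, tested by limma and adjusted by the Benjamini-Hochberg method over 16707 genes, and every adjusted p below comes from that fit. Lung markers were high in all 28 libraries, with Sftpc (surfactant protein C) between 14400 and 20000 and Scgb1a1 (club cell secretory protein) between 22000 and 33000. Over both times, no gene's level differed between September and July at an adjusted p under 0.05 in the limma fit, and 47 had an unadjusted p under 0.05. The values of the batches were therefore closely aligned in their mean, and whether a difference in time change belongs to ZT4 or to ZT16 cannot be told apart in such values. If the authors aligned the batches, standard errors may also be somewhat too small, which bears on the many adjusted p-values below that lie just under 0.05. Among the libraries, 3 September control mice stood apart. At ZT4, mouse 3 (numbered as in the table's header) had a summed value of 1440 over the mature neutrophil markers against 303 to 642 in the other 27 libraries. Mouse 4 at ZT4 had an adipocyte marker sum of 735 against 220 to 449. At ZT16, mouse 3 had a sum of 15600 over heat shock chaperones against 3940 to 8560. The called differences, and list counts that move by 1.5 times or more, are given with and without these 3.

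The promoters of 3 clock genes are shown because each holds 1 of the motifs searched and because the genes went different ways here. They were picked for a match. Some other genes of the loop had a match too, and others, such as Nr1d1, Cry2 and Npas2, had none. Each runs 5′ to 3′ on the gene's strand from 250 bases before to 50 bases after a start site, from RefSeq on GRCm38.p6. Capitals mark AGGTCA, the core of a ROR element, in the first and second, and CACGTG, an E-box, in the third.
Nr1d2 (chr14:18239057-18239356, minus strand): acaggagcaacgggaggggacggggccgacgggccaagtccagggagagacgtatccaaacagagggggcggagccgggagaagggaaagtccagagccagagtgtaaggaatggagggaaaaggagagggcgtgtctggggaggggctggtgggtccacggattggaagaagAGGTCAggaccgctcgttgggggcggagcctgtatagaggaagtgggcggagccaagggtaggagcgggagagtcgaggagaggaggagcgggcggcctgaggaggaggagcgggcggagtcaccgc
Arntl (chr7:113207261-113207560, plus strand): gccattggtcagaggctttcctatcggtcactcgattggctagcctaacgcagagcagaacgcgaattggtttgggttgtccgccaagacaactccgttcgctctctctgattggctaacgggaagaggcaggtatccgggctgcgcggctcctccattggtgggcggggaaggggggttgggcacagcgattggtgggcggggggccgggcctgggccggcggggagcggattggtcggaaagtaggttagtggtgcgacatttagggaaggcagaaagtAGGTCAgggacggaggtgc
Cry1 (chr10:85185005-85185304, minus strand): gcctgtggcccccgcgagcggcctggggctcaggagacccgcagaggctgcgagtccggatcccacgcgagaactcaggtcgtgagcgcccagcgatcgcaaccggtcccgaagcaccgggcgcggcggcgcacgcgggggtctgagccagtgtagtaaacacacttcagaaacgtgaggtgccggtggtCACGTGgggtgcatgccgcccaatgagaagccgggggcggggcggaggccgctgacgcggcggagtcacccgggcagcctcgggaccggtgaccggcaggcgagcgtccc
Searched on both strands, AGGTCA was in 12.9% and CACGTG in 9.26% of the 14967 promoters of genes tested that had a sequence. Of the 17 genes whose time change differed between batches, 12 had sequences, and 3 of their 15 promoters held AGGTCA (Nr1d2, Arntl and Dusp8) and 3 held CACGTG (Nupr1, Net1 and Slc38a5). Of the 1251 promoters of genes called with the same sign in both batches, 11.3% held AGGTCA and 9.19% held CACGTG. TTATGTAA (a D-box) was in 0.641% of all promoters, 1.36% of the latter set and 0 of the 15. TTCTAGAA (a heat shock element core) was in 0.768%, 0.719% and 0. Among the loop's genes, the promoters of Nr1d1, Nr1d2, Cry2 and Per3 held no CACGTG. That of Cry1 did, and Per1 had a promoter with both CACGTG and AGGTCA and another with neither. The promoter of Per3 held TTATGTAA. A Clock promoter (chr5:76303453-76303752) held AGGTCA, and the other Clock promoters did not. Another Arntl promoter (chr7:113207215-113207514) held no AGGTCA, nor did that of Npas2. A match is a run of letters, not a bound site.

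The time change itself differed between September and July for 17 genes, 0.102% of those tested. Among them were the clock repressors Nr1d1 and Nr1d2 and the activator Arntl, and outside the clock the endothelial repressor Bcl6b, the mesenchymal transcription factors Foxf1 and Tcf21, and the amino acid transporter Slc38a5. The difference was positive (the September change lay above the July change) for 10 and negative for 7, with a median size of 0.552. In 13 of the 17 the July change was the larger in size and in 4 the September change. For 8 genes the change was called in July and not in September, for 3 only in September, for 2 in both with the same sign but another size (Nr1d1 and Slc38a5), and for 4 in both with opposite signs (Dusp8, Tcf21, Fzd1 and Tmem44). With each library left out in turn, 4 to 61 genes were called. Nr1d2, Net1, Itga7 and Dusp8 passed in all 28 such fits, and the other 13 lost the call in 10 to 24 of them, with adjusted p up to 0.11 and no change of sign. The count was 4 without September ZT4 anti-Ly6G mouse 2, September ZT16 anti-Ly6G mouse 1, July ZT4 anti-Ly6G mouse 3, July ZT4 control mouse 4 or July ZT16 anti-Ly6G mouse 5, and 61 without September ZT4 anti-Ly6G mouse 5. Without the 3 libraries that stood apart it was 8, of which 6 were among the 17.

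More genes were called with the same direction of change in both batches, which does not show equal sizes. In July 1231 genes were higher at ZT16 (7.37% of those tested) and 1215 lower (7.27%), and in September 1658 were higher (9.92%) and 1573 lower (9.42%). Both calls, with the same sign and no called difference, were made for 1219 genes (7.3%), 707 higher and 512 lower at ZT16, with a median size of 0.378 in July and 0.334 in September. Only 24 of these were over 2-fold in both. A further 1211 genes passed in July alone and 2001 in September alone without a called difference, and 81.4% and 83.4% of these had the same sign in the other batch, where they did not pass. For them neither a loss nor a gain is shown. Across all 16707 genes, which are not independent replicates, the batches' time changes had the same sign in 67.3%, and Pearson's r was 0.55 and Spearman's rho 0.497. The median distance from a difference to either bound of its 95% interval was 0.258, without adjustment for the number of genes. In limma 2032 differences had an unadjusted p under 0.05 and 17 were called. Differences well above 0.258 could therefore go uncalled with these mice, and an uncalled difference is not shown to be absent. Over the batches together, 2351 genes were higher (14.1%) and 2461 lower (14.7%) at ZT16.

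**Figure D1:**
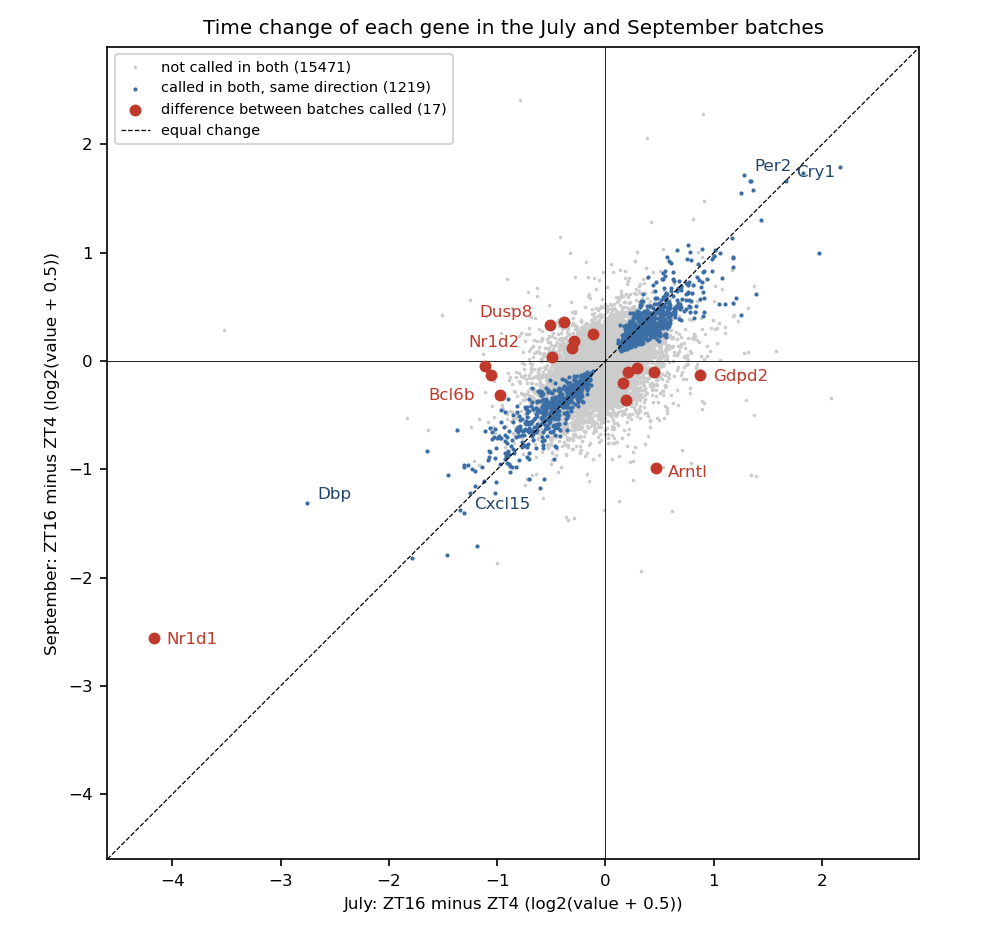
Time change of each of 16707 genes in July (x axis) and September (y axis), both as ZT16 minus ZT4 on the log2(value + 0.5) scale, with the dashed line at equal change. The 17 genes with a called difference (red) lie off the line, Nr1d1 at -4.17 and -2.56, and the 1219 genes called in both batches with the same sign (blue) lie around it, with Dbp at -2.75 and -1.31 the farthest off.

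Nr1d1 (chromosome 11, 98767932 to 98775333, GRCm38) had by far the deepest fall at ZT16 of the genes named here, and the fall was shallower in September. In July its value ran from 303 to 454 at ZT4 (median 376, n = 6) and from 13.4 to 48.9 at ZT16 (median 17.2, n = 6). In September it ran from 137 to 311 at ZT4 (median 227, n = 8) and from 23.3 to 59 at ZT16 (median 38.9, n = 8). The times did not overlap in either batch, and the September values lay lower at ZT4 and higher at ZT16. The log2 change was -4.17 ± 0.25 (SE) in July and -2.56 ± 0.21 in September, a difference of 1.61 ± 0.33 (95% interval 0.945 to 2.284, limma adjusted p = 0.0356). It lost the call in 17 of the 28 single omissions, with adjusted p up to 0.0885, and without the 3 libraries that stood apart it was 1.60 at an adjusted p of 0.0892. Exons of Nr1d1 share 263 bases with Thra, so part of its value may be reads of that gene.

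Nr1d2 (chromosome 14, 18204054 to 18239127), its paralogue and the gene of lowest adjusted p, fell at ZT16 in July and did not pass in September. July values ran from 165 to 209 at ZT4 (median 170) and from 73.2 to 108 at ZT16 (median 75.9), without overlap. September values ran from 93.6 to 178 at ZT4 (median 133) and from 103 to 155 at ZT16 (median 125). The September times overlapped almost wholly. The change was -1.12 ± 0.13 in July and -0.04 ± 0.11 in September, and the difference 1.07 ± 0.17 (interval 0.735 to 1.41, adjusted p = 0.0064) stayed between 1.01 and 1.16 in all single omissions. With the 3 libraries left out it was 1.11 (adjusted p = 0.0088).

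Arntl (chromosome 7, 113207465 to 113314126), the partner of CLOCK, went the other way, with a fall at ZT16 that was called in September alone. In July it ran from 5.39 to 13.7 at ZT4 (median 12.1) and from 10.2 to 18.2 at ZT16 (median 13.9). In September it ran from 10.9 to 28.2 at ZT4 (median 14.2) and from 4.74 to 11.5 at ZT16 (median 8.37). The July ZT4 values were uneven, with control mice 4 and 5 at 5.97 and 5.39 and the other 4 mice at 11.7 or more, and the times overlapped in both batches. The change was 0.46 ± 0.23 in July (adjusted p = 0.186) and -0.99 ± 0.20 in September, a difference of -1.45 ± 0.31 (adjusted p = 0.0493). The call was lost in 23 of the 28 omissions, with adjusted p up to 0.0938, and without the 3 libraries the difference was -1.57 at 0.0599. Its level is below the median of genes tested, and it is described as a member of the clock list. Its exons share 33 bases with Gm45355.

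Npas2, which can take the place of CLOCK, had values much like those of Arntl, and its difference did not pass. Its medians were 4.76 and 8.25 in July at ZT4 and ZT16, and 6.77 and 3.58 in September. The difference was -1.53 ± 0.36 at an adjusted p of 0.0795, the September change being -0.82 ± 0.23 (adjusted p = 0.0144). Clock had -0.09 ± 0.12 for the difference, with no change called in either batch.

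At the ROR element, Rora rose in September (0.48 ± 0.08, adjusted p = 4.4e-05) with 0.22 ± 0.09 in July, a difference of 0.27 ± 0.12 that did not pass (adjusted p = 0.348).

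The cryptochromes, which block BMAL1 with the PER proteins, were called higher at ZT16 in both batches. Cry1 ran from 11.2 to 16.7 at ZT4 and from 40.1 to 51.3 at ZT16 in July, and from 11.8 to 18.1 and from 37.5 to 50.5 in September. Its rise was 1.67 ± 0.10 in July and 1.66 ± 0.09 in September, and the interval of the difference, -0.283 to 0.273, lay on both sides of 0. Cry2 rose by 0.40 ± 0.10 and 0.31 ± 0.08. Neither difference passed.

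Among the period genes, Per2 rose by 1.28 ± 0.23 in July and 1.72 ± 0.20 in September, with 41.3 to 107 at ZT4 against 124 to 188 at ZT16 in July and 25.1 to 88 against 151 to 269 in September. The difference of 0.44 ± 0.31 did not pass (adjusted p = 0.577). Per3 had 0.18 ± 0.14 in July, where the times overlapped (72.4 to 117 and 91.3 to 128), and rose by 0.83 ± 0.12 in September, where they did not (47 to 103 and 111 to 163). The difference for Per3, 0.65 ± 0.18, had an adjusted p of 0.134. Per1 did not pass in either batch.

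Dbp, an output factor that binds D-boxes, fell in both batches and counts among the kept genes, but its values followed the pattern of Nr1d1. The July medians were 83 at ZT4 and 11.6 at ZT16, without overlap, and the September medians 52.2 and 20.8, with overlap. The fall was -2.75 ± 0.34 in July and -1.31 ± 0.29 in September. The difference of 1.44 ± 0.45 is as large as that of Arntl in size but did not pass (adjusted p = 0.178), so neither equal nor unequal falls are shown. Exons of Dbp share 539 bases with Sphk2. Of the related factors, Hlf (0.19 ± 0.12 and 0.62 ± 0.10) and Tef (0.22 ± 0.13 and 0.55 ± 0.11) were called higher in September and not in July, and Nfil3, a repressor at the same sites, rose in July (1.17 ± 0.20) and had 0.41 ± 0.17 in September, with adjusted p of 0.26, 0.459 and 0.227 for the differences.

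Over the 4 clock lists, 42 genes were tested, Ciart standing in 2 of them under its present and an older name. The difference between batches was called for 3 of them, against 0.102% of all genes, and 18 had an unadjusted p under 0.05, against 12.2% of all genes. These lists were drawn up with earlier results of the data known. By list, the medians of the time change in July and September were 0.46 and -0.04 for 5 activators, 0.02 and 0.12 for 13 repressors, 0.19 and 0.36 for 7 output factors, and 0.28 and 0.29 for 18 output genes, beside -0.01 and 0 for all genes. Of all genes, 7.37% were called higher in July and 9.92% in September, and 7.3% were kept. Of the 18 output genes, 9 were called higher in July and 10 in September (7 without the 3 libraries), and 7 were kept. Lonrf3, a RING finger protein whose level is below the median of genes tested, had the largest change of these, 1.82 ± 0.16 and 1.74 ± 0.14.

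**Figure D2:**
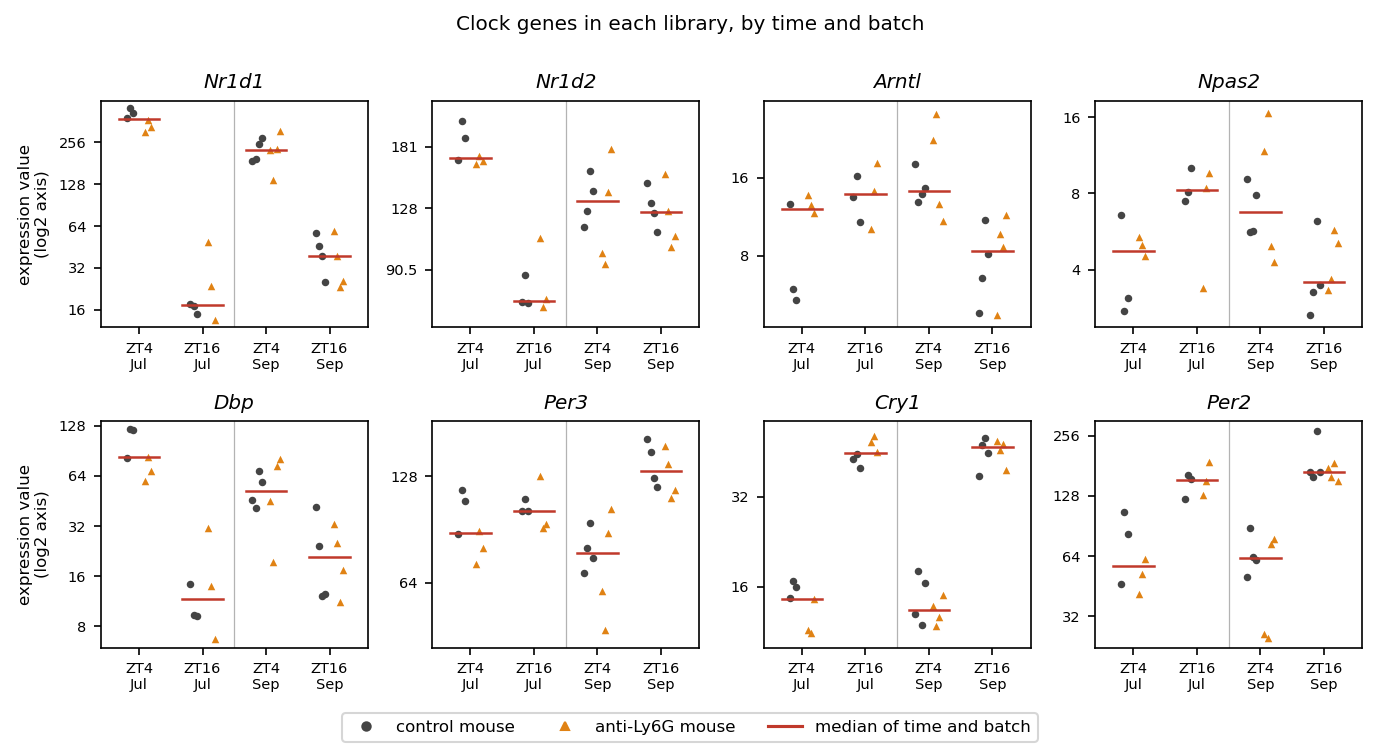
Values of 8 clock genes in each of 28 libraries (log2 axis) at ZT4 and ZT16 in July and September, with control mice as grey circles, anti-Ly6G mice as orange triangles and red bars at the medians. The medians of Nr1d1 are 376 and 17.2 in July and 227 and 38.9 in September, those of Nr1d2 are 133 and 125 in September, and Cry1 and Per2 are higher at ZT16 in both batches. The differences of Npas2, Dbp and Per3 did not pass.

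Outside the clock, Bcl6b, Foxf1, Tcf21 and Fzd1 were called lower at ZT16 in July, and in September were either not called or higher. Bcl6b (chromosome 11, 70224128 to 70229798), a transcriptional repressor related to BCL6, ran from 40.7 to 61 at ZT4 and from 15.7 to 35.3 at ZT16 in July, and from 30.6 to 42.6 and from 25.1 to 41.5 in September. Its July times did not overlap and its September times did. The change was -1.06 ± 0.14 in July and -0.13 ± 0.12 in September (difference 0.93 ± 0.18, adjusted p = 0.0356). With the 3 libraries left out it was 0.88 and did not pass (adjusted p = 0.062).

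Foxf1 (chromosome 8, 121084386 to 121088144), a forkhead factor of lung mesenchyme and capillary endothelium, ran from 234 to 283 at ZT4 and from 173 to 205 at ZT16 in July. In September the ranges were 174 to 270 and 202 to 266. The change was -0.49 ± 0.08 in July and 0.04 ± 0.07 in September (difference 0.53 ± 0.11, adjusted p = 0.0356). Its exons share 98 bases with Gm27530. Tcf21 (chromosome 10, 22817281 to 22820174), a helix-loop-helix factor of lung fibroblasts, reversed. Its medians were 101 at ZT4 and 73.2 at ZT16 in July, and 73.4 and 95.9 in September, with overlap in both. Its change was -0.39 ± 0.11 and then 0.36 ± 0.09, both called (difference 0.75 ± 0.14, adjusted p = 0.0356). Tcf21 passed without the 3 libraries (0.77, adjusted p = 0.0115) and Foxf1 did not (0.47, adjusted p = 0.0892). Fzd1, a receptor for WNT ligands, reversed likewise, from -0.29 ± 0.07 to 0.19 ± 0.06 (difference 0.48 ± 0.10, adjusted p = 0.0356), with medians of 62.5 and 51 in July and 51.6 and 57.9 in September. Its difference without the 3 libraries was 0.44 at an adjusted p of 0.062.

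Dusp8 (chromosome 7, 142079490 to 142095843), a phosphatase of stress-activated MAP kinases, also reversed and was among the genes that passed in all 28 omissions. Its values ran from 30.1 to 44.8 at ZT4 and from 26 to 32 at ZT16 in July, and from 20.4 to 37.5 and from 26.8 to 53.3 in September. The times overlapped in both batches. The change was -0.51 ± 0.11 in July and 0.33 ± 0.10 in September (difference 0.84 ± 0.15, adjusted p = 0.0137). With the 3 libraries left out the difference was 0.76 (adjusted p = 0.0416). Its exons share 66 bases with Gm32786.

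Slc38a5 (chromosome X, 8271133 to 8280179), a transporter of glutamine and other neutral amino acids, kept its fall but at a smaller size. It ran from 28.8 to 34 at ZT4 and from 14.2 to 17.3 at ZT16 in July, and from 18.9 to 35 and from 16.7 to 23.3 in September. July separated the times fully and September did not. The change was -0.98 ± 0.10 in July and -0.31 ± 0.09 in September (difference 0.66 ± 0.13, adjusted p = 0.0356). Cse1l, an export receptor for importin alpha, rose in September alone (0.25 ± 0.05, against -0.11 ± 0.06 in July, adjusted p of the difference 0.0356). The transcript 1190002N15Rik, outside the rule for named genes because of its symbol, had -0.31 ± 0.06 in July and 0.12 ± 0.05 in September (adjusted p = 0.0356). None of these passed without the 3 libraries, at adjusted p of 0.0892 for Slc38a5 (0.57), 0.0701 for Cse1l (0.37) and 0.0599 for 1190002N15Rik (0.41).

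The genes with a negative difference were mostly higher at ZT16 in July and not in September. Gdpd2, a glycerophosphodiester phosphodiesterase, ran from 15.4 to 22.2 at ZT4 and from 23.3 to 46.5 at ZT16 in July, and from 21 to 37.2 and from 19.6 to 32.5 in September. Its July rise of 0.88 ± 0.15 had no counterpart in September (-0.13 ± 0.13, difference -1.001 ± 0.198, adjusted p = 0.0356). Its exons share 799 bases with Gm14866. Nupr1, a stress-induced chromatin protein, ran from 82.6 to 113 and from 127 to 147 in July, and from 100 to 145 and from 89.3 to 128 in September, with changes of 0.45 ± 0.09 and -0.10 ± 0.08 (difference -0.55 ± 0.12, adjusted p = 0.0493). Neither passed without the 3 libraries, at -1.02 for Gdpd2 (adjusted p = 0.0701) and -0.57 for Nupr1 (adjusted p = 0.062).

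Net1 (chromosome 13, 3882018 to 3918220), an exchange factor that activates RhoA, had a small but even change. July values ran from 116 to 129 at ZT4 and from 141 to 160 at ZT16, without overlap, and September values from 133 to 151 and from 122 to 144. The ZT4 values of July lay below all those of September. The change was 0.29 ± 0.04 in July and -0.06 ± 0.04 in September (difference -0.35 ± 0.06, adjusted p = 0.00846), and it passed in every single omission and with the 3 libraries left out (-0.32, adjusted p = 0.0238). Bckdha, a subunit of the enzyme that breaks down branched-chain amino acids, rose by 0.21 ± 0.05 in July and had -0.10 ± 0.04 in September (adjusted p = 0.0493). Bckdha did not pass once the 3 libraries were left out (adjusted p = 0.117). Of its exonic bases, 1171 are shared with B3gnt8.

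Itga7 (chromosome 10, 128933818 to 128958282), the alpha 7 integrin of muscle, fell at ZT16 in September, from 25.6 to 33.5 at ZT4 to 20.6 to 25.9. July values ran from 22.5 to 27.7 and from 26.2 to 30.2. At ZT16 the July values all lay above the September values. The change was 0.19 ± 0.07 in July, which did not pass (adjusted p = 0.0525), and -0.36 ± 0.06 in September (difference -0.55 ± 0.09, adjusted p = 0.00846). Its exons share 9 bases with Mettl7b. Tmem44, a membrane protein, went from 0.16 ± 0.06 in July to -0.21 ± 0.05 in September (adjusted p = 0.0356). Both passed with the 3 libraries left out, Itga7 at -0.54 (adjusted p = 0.0238) and Tmem44 at -0.42 (adjusted p = 0.0115).

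**Figure D3:**
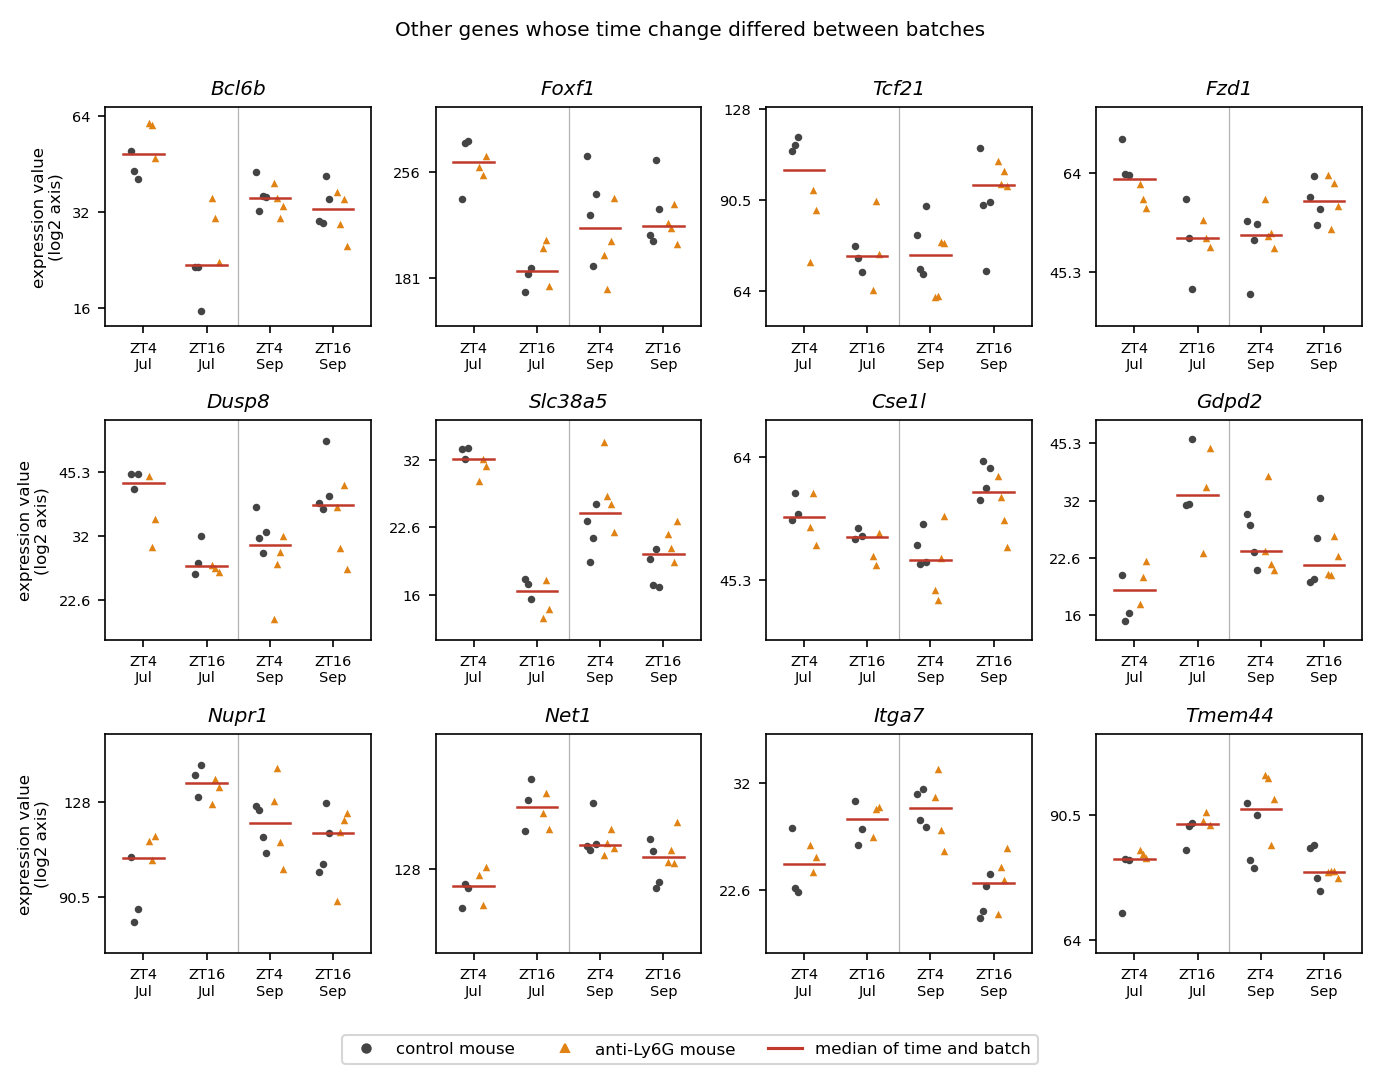
Values of 12 other genes with a called difference in each of 28 libraries (log2 axis), by time and batch, with control mice as grey circles, anti-Ly6G mice as orange triangles and red bars at the medians. Bcl6b, Foxf1 and Slc38a5 separate the times in July and overlap in September, Tcf21, Fzd1 and Dusp8 turn over, and Gdpd2, Nupr1 and Net1 rise at ZT16 in July alone.

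For the 17 genes the shift between batches was split evenly over the times. Nr1d1, for instance, had a September minus July difference in level of -0.755 (log2) at ZT4 and of 0.86 at ZT16, with a mean of 0.053. Nr1d2 had -0.465 and 0.607, Arntl 0.685 and -0.769, and Net1 0.173 and -0.178. As values with aligned batch means must show such mirror images, these numbers do not say at which time the mice of the batches differed.

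The difference had the same sign in control and in anti-Ly6G mice for all 17 genes, a condition that the rule for named genes also used. The difference was larger in size in control mice for all but Tmem44 and Foxf1, the latter having 0.53 in both. Examples are Nr1d1 (2.16 in control and 1.07 in anti-Ly6G mice), Arntl (-1.76 and -1.14) and Nr1d2 (1.18 and 0.96). The test of that three-way difference called 0 genes with limma, and 570 had an unadjusted p under 0.05, 3.41% of genes tested. For Nr1d1 its unadjusted p was 0.0994. Fitted in control mice alone the difference was called for 4 genes and in anti-Ly6G mice alone for 1, with 2 and 0 of the 17 among them. Each treatment has 6 July and 8 September mice.

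**Figure D4:**
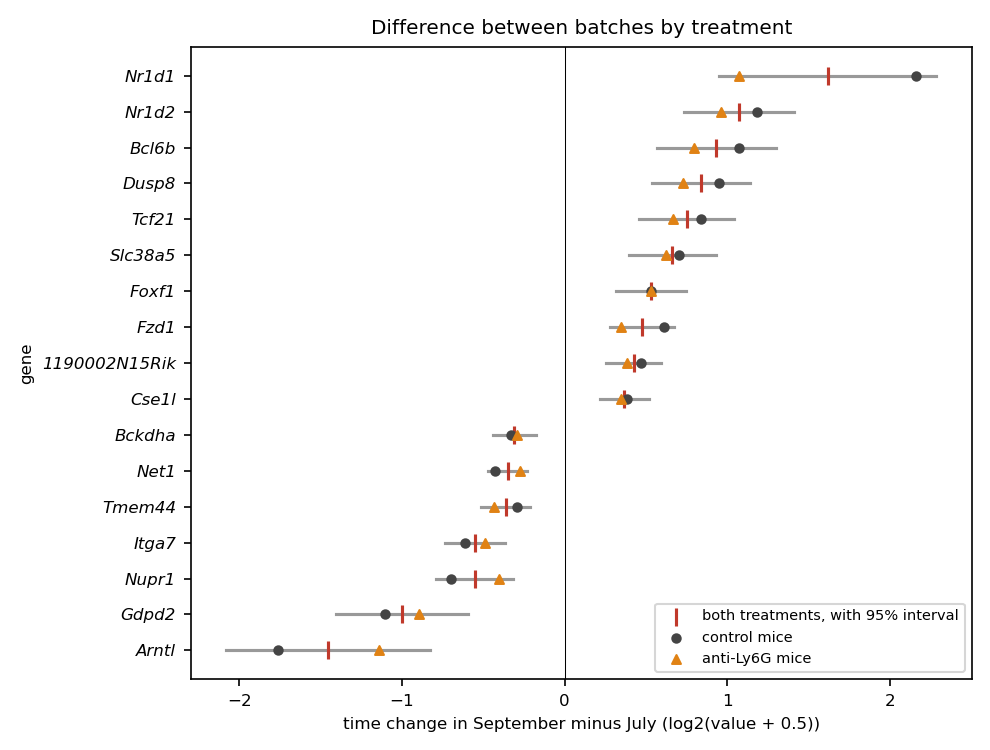
Difference between batches (September minus July time change, log2(value + 0.5)) of the 17 genes, as the estimate over both treatments with its 95% interval (red bar and grey line) and as separate estimates in control (circles) and anti-Ly6G mice (triangles). Control and anti-Ly6G estimates lie on the same side of 0 for every gene, farthest apart for Nr1d1.

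Among the genes kept in both batches and not below the median level, those with a large rise at ZT16 beside Cry1 were Cys1, a cilium-associated protein (1.36 ± 0.13 in July and 1.58 ± 0.11 in September), Per2, Akr1c14, a hydroxysteroid dehydrogenase (1.26 ± 0.16 and 1.55 ± 0.14), and Fmo2, the main flavin monooxygenase of lung. Akr1c14 was uneven at ZT16 in July, from 79.4 to 247 (median 205), against 67.9 to 76.8 at ZT4. Its July rise was 1.53 in control and 0.98 in anti-Ly6G mice. Fmo2 ran from 841 to 1100 at ZT4 and from 1760 to 2520 at ZT16 in July, and from 794 to 1170 and from 1970 to 2500 in September. Its changes were 1.17 ± 0.09 and 1.14 ± 0.08, and the difference lay between -0.268 and 0.215. Sec14l2, a lipid-binding protein (1.01 ± 0.14 and 0.97 ± 0.12), and Adgrl3, an adhesion receptor (1.00 ± 0.14 and 0.97 ± 0.12), were alike.

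Hsph1, a heat shock chaperone, rose by 1.06 ± 0.33 and 1.00 ± 0.28, though September ZT16 control mouse 3 stood at 743 where the other September ZT16 mice lay between 107 and 247. Without the 3 libraries its September rise was 0.95 ± 0.19. Fam107a, a stress-responsive actin-bundling protein, had 1.97 ± 0.40 in July and 1.00 ± 0.34 in September, and without the 3 libraries its September call was lost (0.99 at an adjusted p of 0.0901).

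Among the kept genes of that level, Cxcl15 and Acoxl fell at ZT16 in both batches. Both are on the list for alveolar type 2 cells, which make surfactant, and that list as a whole went both ways, with medians of -0.10 and -0.09, 4 of 23 called higher and 8 lower in July, and 2 higher and 8 lower in September (none higher without the 3 libraries). Of all genes, 7.37% were called higher and 7.27% lower in July, and 9.92% and 9.42% in September. The list's counts of higher genes fell to 2 in July without ZT4 anti-Ly6G mouse 3 or 4, ZT4 control mouse 4 or 5 or ZT16 anti-Ly6G mouse 4, and to 1 in September without any of 9 mice, while 8 or 9 were lower in each. Cxcl15, the lung chemokine lungkine, ran from 1100 to 1490 at ZT4 and from 401 to 585 at ZT16 in July, and from 1220 to 1440 and from 417 to 568 in September. Its fall was -1.31 ± 0.08 and -1.41 ± 0.07, with the interval of the difference from -0.307 to 0.113. Acoxl, an acyl-CoA oxidase homologue, had -1.35 ± 0.09 and -1.38 ± 0.08, and Loxl1, which cross-links elastin, -0.89 ± 0.08 and -0.86 ± 0.07. Also in this group were Colq (-1.31 ± 0.15 and -0.98 ± 0.13), the sodium channel Scn3a (-1.31 ± 0.13 and -0.96 ± 0.12), Itgb6, the epithelial integrin that activates TGF-beta (-0.93 ± 0.14 and -0.91 ± 0.13), the glycoprotein Lrg1 (-0.86 ± 0.17 and -0.98 ± 0.15) and Gbp6, an interferon-induced GTPase (-1.27 ± 0.35 and -0.96 ± 0.30). The July ZT4 values of Gbp6 were uneven, from 26.2 to 268 with a median of 40.1, against 17.1 to 28.1 at ZT16. Its times overlapped in both batches. Ighm, the mu heavy chain of B cells, had -0.90 ± 0.29 and -0.84 ± 0.25, and its September call was lost without the 3 libraries (-0.66 at an adjusted p of 0.0644).

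The gene lists beside the clock, 42 in number with cell type markers among them, are given by counts and medians, without a test. In whole lung a lower value can mean fewer cells of a type or less RNA per cell, which cannot be told apart here. Over all genes 51.1% had a positive difference. Several lists lay on one side throughout: the difference was positive for 19 of 19 alveolar type 1 markers, and negative for 21 of 22 heart muscle markers, 15 of 16 club and goblet cell markers, 11 of 11 adipocyte markers and 29 of 30 ribosomal proteins. None of their genes passed for the difference, and genes of one cell type are not independent of each other.

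Alveolar type 1 cells form the gas exchange surface. The median change of their markers was -0.20 in July and 0.04 in September. Of 19 markers, 5 were called lower in July, where 7.27% of all genes were. The summed value ran from 12900 to 14400 at ZT4 and from 9110 to 14600 at ZT16 in July, the lowest being anti-Ly6G mouse 4, and from 10600 to 15000 and from 13400 to 14600 in September. Without that July mouse the median difference was 0.12 instead of 0.23, and 2 were called lower in July. It was 3 without ZT4 anti-Ly6G mouse 2 or 3, ZT4 control mouse 4 or ZT16 anti-Ly6G mouse 1, and 9 without ZT16 anti-Ly6G mouse 5 or ZT16 control mouse 4. Club and goblet markers, of secretory airway cells, had medians of 0.23 and -0.16. Chad had the smallest p of them, with 0.19 ± 0.09 in July and -0.35 ± 0.08 in September (adjusted p of the difference 0.062).

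Heart muscle markers, of tissue that reaches the lung along the pulmonary veins, had medians of 0.21 and -0.14. Their summed values overlapped throughout, from 911 to 1710 and from 1200 to 1840 in July at ZT4 and ZT16, and from 1120 to 1930 and from 1130 to 1840 in September. Adipocyte markers had 0.31 and -0.11, and -0.01 in September without the 3 libraries. Whether such tissue carried on the lobe had a part in the differences was not tested.

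Immediate early genes, which cells switch on within minutes of a stimulus, had a median of -0.29 in July and 0.11 in September. The difference was positive for 17 of 22. Of all genes, 7.37% were called higher and 7.27% lower in July, and 9.92% and 9.42% in September. Of the 22 immediate early genes, 4 were called lower and none higher at ZT16 in July. In September 3 were called higher, near the share of all genes, and none lower. Without the 3 libraries 1 was called higher in September, at a median of 0.02, and leaving out any one of ZT4 control mice 2 and 4, ZT16 control mice 1 and 3 or ZT16 anti-Ly6G mice 1, 2 and 3 of September also left 1. Atf3 had the smallest p, with -0.78 in July (adjusted p = 0.00305) and 0.26 in September, and its difference of 1.03 ± 0.23 did not pass (adjusted p = 0.07). Glucocorticoid targets had medians of 0.35 and 0.14. Of 17 tested, 5 were called higher in July, and 2 were called higher and 1 lower in September. Without the 3 libraries 1 was called higher in September. In single omissions the lowest counts of higher genes were 2 in July and 0 in September. Tsc22d3 was called higher in both (0.98 and 0.83). Its times overlapped in both, with 205 to 437 and 210 to 883 in July and 98.6 to 602 and 424 to 813 in September. Of 20 heat shock chaperones, 5 were called higher in July and 8 in September with none lower, at medians of 0.40 and 0.47. Without the 3 libraries 9 and 11 were called. The July count was 8 without September ZT16 control mouse 3, and 3 without July ZT4 anti-Ly6G mouse 2, ZT4 control mouse 2 or ZT16 anti-Ly6G mouse 4 or 5. The September count was 16 without ZT4 control mouse 3, 4 without ZT16 control mouse 3 or ZT16 anti-Ly6G mouse 3, and 5 without ZT4 anti-Ly6G mouse 1, ZT4 control mouse 4 or ZT16 anti-Ly6G mouse 1.

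Mature neutrophil genes had medians of -0.32 in July and -0.98 in September. At ZT16, 2 and 11 of 20 were called lower, against 7.27% and 9.42% of all genes. The September neutrophil figures rest in part on ZT4 control mouse 3, whose S100a8 stood at 197 against at most 42.9 elsewhere. Without the 3 libraries the September median was -0.69 with 7 called, and 5 were called without ZT4 control mouse 2 and 7 without ZT16 control mouse 3. Hdc, which makes histamine, fell in both batches (-0.71 ± 0.10 and -1.09 ± 0.09), from 70.9 to 106 at ZT4 to 45.5 to 53.6 at ZT16 in July and from 76.7 to 135 to 38.8 to 47.8 in September. Its change was of similar size in control and anti-Ly6G mice, at -0.68 and -0.73 in July and -1.17 and -1.01 in September. By treatment, the neutrophil marker sum ran from 391 to 1440 in September ZT4 control mice, the highest being mouse 3. It ran from 350 to 412 in the anti-Ly6G mice beside them, the medians being 521 and 397. The other medians of control and anti-Ly6G mice lay closer. They were 398 and 387 in July at ZT4, 380 and 322 in July at ZT16, and 334 and 315 in September at ZT16.

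Some genes of lymphocytes and antigen presentation were called lower at ZT16 in each batch, where 7.27% (July) and 9.42% (September) of all genes were. B cell genes had medians of -0.87 and -0.59, with 14 of 20 called lower in July and 9 in September, and Vpreb3 alone called higher (0.90 and 0.82). T cell genes had -0.31 and -0.37, with 2 and 10 of 22 called lower and 0 kept. Natural killer genes had -0.50 and -0.52 with 5 and 12 of 19 called lower, and genes of MHC class II presentation -0.35 and -0.35 with 8 of 11 called lower in each. These counts moved with single mice. In July, B cell genes called lower went to 8 without ZT16 anti-Ly6G mouse 5 and to 9 without ZT4 anti-Ly6G mouse 2, ZT4 control mouse 2 or 4 or ZT16 control mouse 5. July natural killer genes went to 2 without ZT16 anti-Ly6G mouse 5 and to 3 without ZT4 anti-Ly6G mouse 2 or 4 or ZT16 control mouse 3 or 5. July T cell genes went to 1 without ZT4 anti-Ly6G mouse 2 or 3 or ZT16 anti-Ly6G mouse 5, and to 4 without ZT4 control mouse 5 or ZT16 control mouse 3 or 4. MHC class II genes in July went to 3 without ZT4 anti-Ly6G mouse 4, ZT4 control mouse 4 or ZT16 anti-Ly6G mouse 5, to 4 without ZT4 control mouse 5 or ZT16 anti-Ly6G mouse 1, and to 5 without ZT16 control mouse 4 or 5. In September, without ZT16 control mouse 3, B cell genes went to 4, natural killer genes to 6 and T cell genes to 6, and without ZT4 anti-Ly6G mouse 2 to 4, 7 and 6. September B cell genes also went to 4 without ZT4 anti-Ly6G mouse 1 or ZT4 control mouse 2. With the 3 libraries left out, the September counts were 8, 7 and 7 for these lists, and 3 T cell genes were called in July.

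Mesothelium, the lining of the lung surface, had -0.38 in both. Differences passed for none of these genes. Of 33 genes of xenobiotic metabolism, 17 were called higher in July and 14 in September, at medians of 0.36 and 0.13, with the lowest p over both batches for the glutathione transferase Gsta3 (1.18 and 0.96, from 154 to 187 to 353 to 398 in July and from 168 to 206 to 313 to 386 in September). Of all genes 7.37% and 9.92% were called higher. Fatty acid oxidation genes had -0.10 and -0.16 with 7 and 15 of 28 called lower (10 in September without the 3 libraries). Extracellular matrix genes had -0.09 and -0.07 with 12 and 9 of 36 called lower. Among all genes, 7.27% and 9.42% were called lower.

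**Figure D5:**
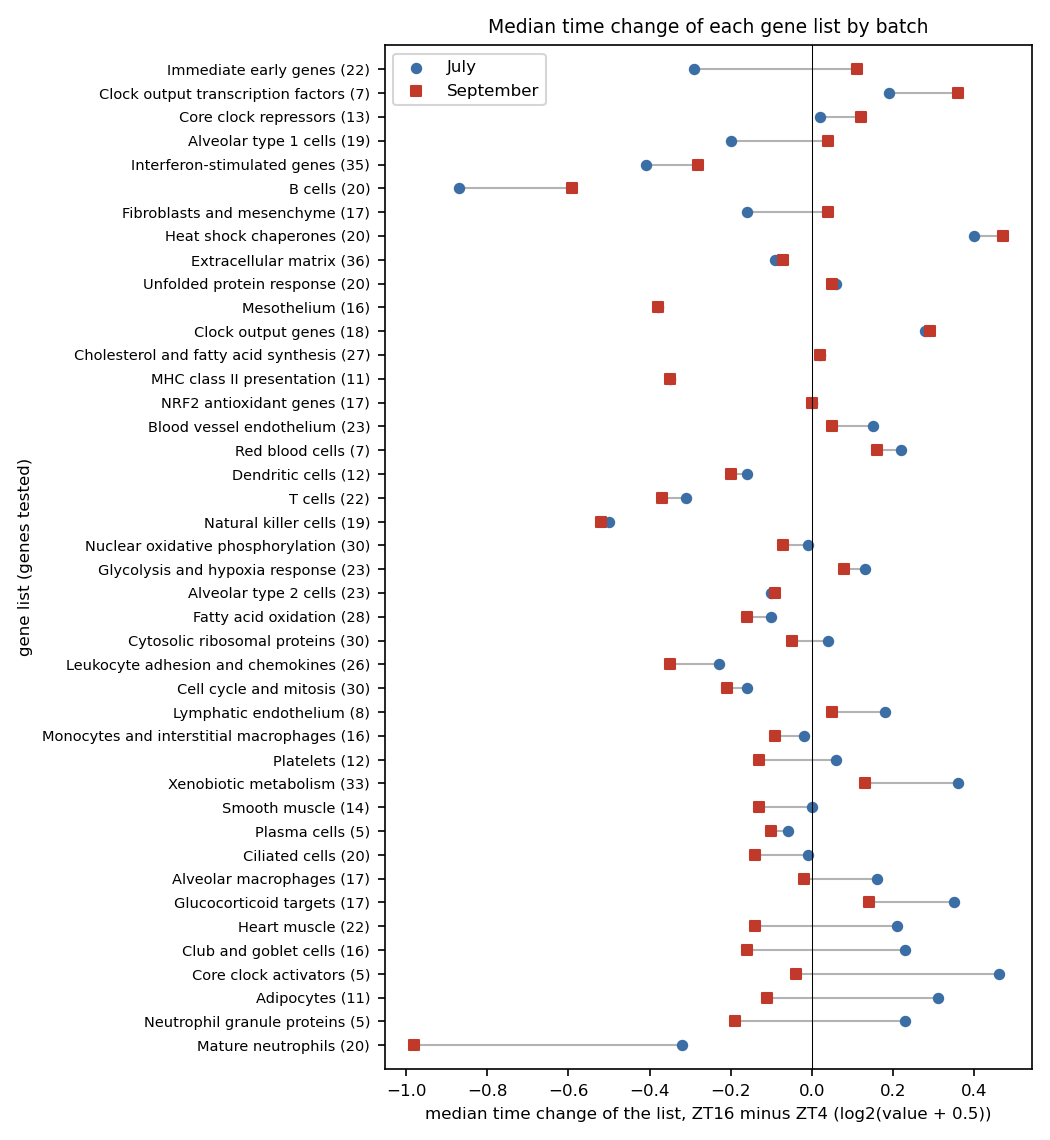
Median time change (ZT16 minus ZT4, log2(value + 0.5)) of each list with 5 or more genes tested, in July (blue circles) and September (red squares), sorted by the median difference. Most lists lie close in both batches, with the widest gaps for mature neutrophils (-0.32 and -0.98), core clock activators (0.46 and -0.04), adipocytes (0.31 and -0.11), neutrophil granule proteins (0.23 and -0.19) and immediate early genes (-0.29 and 0.11).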

How the data were processed

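RNA of left lung lobes was amplified (Ovation Single Cell kit) before sequencing, per the labels' protocols. The tools kallisto 0.43.1, RSEM 1.2.20, CASAVA 1.8.2 and cutadapt and the build GRCm38 appear, with no stated role, per the submitters' processing notes. The deposited values are the authors' normalised expression signal per gene, not counts. Their normalisation, and any adjustment for batch, are not given in the sources used here. They hold 0 zeros, and depth is unknown, so precision rests on the number of mice. Columns named a group and batch, not a single sample, and 0 columns were left without one. Each library was taken as 1 mouse, since the labels speak of mice per group, and no libraries were identical.

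Of 22211 genes, 16707 with a value of 1 or more in at least 3 of the 28 libraries were tested. limma 3.58.1 in R 4.3.3 was fitted with trend to log2(value + 0.5), with 4 means of time and batch and an additive treatment term (23 residual degrees of freedom). Tests were two-sided, with Benjamini-Hochberg adjustment over all genes and a threshold of 0.05. Folds on this scale understate changes of low genes. Scripts were tested on simulated data. Gene spans and shared exons are from GENCODE M21 on GRCm38. Strand use in counting is not given.

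Named genes were, for the difference, up to 10 of each sign that passed with a usual symbol, a level at or above the median and the same sign in both treatments. For kept genes they were up to 10 of each sign with the largest smaller change of the batches, within the same limits of symbol and level. All clock list members and up to 3 members per list by p were added, and the text gives those that carry a result. A gene meeting these rules is not reported here. The mice, the 46 lists and these rules were chosen with earlier results of these data known. Alternatives were other pseudocounts, filters, scaling, fits and left-out libraries. Leaving out 3 libraries together and an adjusted p under 0.1 were added after seeing the data.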

Additional observations from a re-analysis of the deposited data

Results flagged for a closer look

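The 17 genes whose time change differed between the batches were marked because the difference itself passed limma at an adjusted p under 0.05. On the log2(value + 0.5) scale, September minus July was 1.61 for Nr1d1, 1.07 for Nr1d2, 0.93 for Bcl6b, 0.84 for Dusp8, 0.75 for Tcf21, 0.66 for Slc38a5, 0.53 for Foxf1, 0.48 for Fzd1, 0.42 for 1190002N15Rik and 0.36 for Cse1l. It was -1.45 for Arntl, -1 for Gdpd2, -0.55 for Nupr1 and for Itga7, -0.36 for Tmem44, -0.35 for Net1 and -0.31 for Bckdha.

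Among the September groups of 4 mice, 14 values of named genes lay far from the other 3 of their group by Dixon's ratio, of 284 groups checked over 71 genes, where chance gives about 1 in 20. In September ZT4 control mouse 4 the values were Net1 151 (others 134 to 136), Adgrl3 28.3 (others 43.3 to 46.6). In September ZT16 anti-Ly6G mouse 4 the values were Tmem44 75.9 (others 77.4 to 77.6), Coq10b 31.7 (others 41.4 to 41.8), Ighm 84.6 (others 34.4 to 36.4). In September ZT4 control mouse 3 the values were 1190002N15Rik 108 (others 125 to 128). In September ZT16 control mouse 3 the values were Rora 87.5 (others 74.3 to 76.1), Per2 269 (others 159 to 168), Hsph1 743 (others 132 to 171). In September ZT16 anti-Ly6G mouse 1 the values were Csnk1d 191 (others 176 to 177). In September ZT4 control mouse 2 the values were Tef 277 (others 354 to 363). In September ZT16 control mouse 1 the values were Dtx4 27 (others 32.9 to 33.3), Bcl6 39.1 (others 69.2 to 70.9), Colq 21.4 (others 12.9 to 13.6).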

How the results depend on the processing

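No paired analysis was possible because the table's columns carry no replicate number of the labels and the batches hold different mice. The count of genes whose time change differed between batches, 17 in the fit described, was 4 in control mice alone, 1 in anti-Ly6G mice alone, 8 without the 3 September libraries that stood apart and 55 at an adjusted p under 0.1. With each library left out in turn it ran from 4 to 61, that for July from 1918 to 2522, for September from 2474 to 3382, over both batches from 4408 to 4919 and for kept genes from 1007 to 1295. The three-way difference stayed at 0 in all 28. In control mice alone the counts were 378 for July, 460 for September, 1228 over both and 124 kept, and in anti-Ly6G mice alone 996, 1323, 3041 and 483, where the fits have fewer samples. Pseudocounts of 0.1 and 1, no filter, a stricter filter, centred libraries, 8 group means, a robust prior and array weights gave 12 to 21 called differences. No called difference of a named gene changed sign in any of these. DESeq2 was not run, as the values are not counts. Depth is unknown, and the number of mice limits which differences could be seen.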
